A study of Homo sapiens with 12 samples.

Results

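Histones are the proteins around which DNA is wound, and 53 human histone genes were followed here through 75 probe sets that each name a single gene. A gene was taken by symbol alone, when its older name, kept as a synonym in the RefSeq gene table, began with HIST1H, HIST2H, HIST3H, HIST4H, H2AF or H3F, or was H1F0 or H1FX. The array names 19775 genes through such single-gene probe sets, and 119 genes of the RefSeq table meet the rule, so the histone genes described are those that the array can name one by one. They comprise 40 replication-dependent genes, 8 variant genes outside the clusters, 3 genes known for expression in testis (H1-6, H2BC1 and H3-4) and 2 genes listed as pseudogenes (H2AC5P and H4C10P). Levels are the signals of single Affymetrix GeneChip U133 Plus 2.0 arrays on the linear MAS5 scale, on which the level of one probe set cannot be set against that of another.

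The cells were 2 established carcinoma lines, A549 from a lung adenocarcinoma and SW780 from a urinary bladder carcinoma, each transfected with an siRNA at 100 nM for 24 h with a Lipofectamine reagent. The siRNAs were siKDM3A, directed at the histone demethylase KDM3A, and 2 controls called siFFluc and siEGFP. Each of the 6 groups of line and siRNA held 2 arrays, 12 in all, and A549 was grown in RPMI1640 while SW780 was grown in Leibovitz L-15. Medium and line therefore cannot be told apart, each tissue is represented by 1 line, and nothing in the labels says whether the 2 arrays of a group came from separate cultures, so p-values measure the spread between arrays only.

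A nucleosome is built from histones H2A, H2B, H3 and H4, and the linker histone H1 binds the DNA between nucleosomes. Replication-dependent histone genes lie in clusters, are transcribed mainly in S phase, and give mRNAs that end in a stem-loop bound by SLBP in place of a poly(A) tail. Variant genes such as H2AZ1, MACROH2A1 and H3-3A lie alone, are transcribed outside S phase as well, and give polyadenylated mRNAs. KDM3A removes methyl groups from lysine 9 of histone H3. The usual labelling protocol for this array primes cDNA on the poly(A) tail, so mRNAs without one are poorly represented; the share of each member's mRNA that was polyadenylated was not measured.

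The promoters of 4 members are printed because 3 of them, H2BC21, H2BC5 and H4C11, are cluster genes whose calls under siKDM3A held in the most alternative analyses, and H2AZ1 is a variant for contrast. Each sequence is the RefSeq window of GRCh38.p14 from 250 bases before to 50 bases after the transcription start, 5′ to 3′ on the gene's strand. H2BC21 is at chr1:149886633-149886932 on the minus strand, H2BC5 at chr6:26157871-26158170 on the plus strand, H4C11 at chr6:27823842-27824141 on the plus strand and H2AZ1 at chr4:99950226-99950525 on the minus strand. Capitals mark the octamer ATTTGCAT, known as an element of H2B promoters, the TATA motif TATAAA and the motif CCAAT, each searched on both strands.
H2BC21: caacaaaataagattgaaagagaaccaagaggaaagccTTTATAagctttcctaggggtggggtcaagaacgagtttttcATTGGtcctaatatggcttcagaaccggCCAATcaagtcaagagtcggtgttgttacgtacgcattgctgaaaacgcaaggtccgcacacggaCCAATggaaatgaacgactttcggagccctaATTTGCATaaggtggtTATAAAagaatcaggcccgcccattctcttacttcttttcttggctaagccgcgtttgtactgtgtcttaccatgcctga
H2BC5: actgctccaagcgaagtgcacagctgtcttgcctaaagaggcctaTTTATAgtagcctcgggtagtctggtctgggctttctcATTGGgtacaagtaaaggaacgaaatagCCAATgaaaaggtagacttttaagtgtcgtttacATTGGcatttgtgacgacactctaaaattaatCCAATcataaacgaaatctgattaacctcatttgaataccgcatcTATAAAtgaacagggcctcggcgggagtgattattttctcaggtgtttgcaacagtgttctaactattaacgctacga
H4C11: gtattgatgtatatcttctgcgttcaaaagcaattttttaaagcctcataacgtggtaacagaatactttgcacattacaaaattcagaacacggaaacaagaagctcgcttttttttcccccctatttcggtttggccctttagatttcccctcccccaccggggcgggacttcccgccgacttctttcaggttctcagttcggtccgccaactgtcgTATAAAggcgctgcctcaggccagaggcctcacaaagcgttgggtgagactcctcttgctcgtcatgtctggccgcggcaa
H2AZ1: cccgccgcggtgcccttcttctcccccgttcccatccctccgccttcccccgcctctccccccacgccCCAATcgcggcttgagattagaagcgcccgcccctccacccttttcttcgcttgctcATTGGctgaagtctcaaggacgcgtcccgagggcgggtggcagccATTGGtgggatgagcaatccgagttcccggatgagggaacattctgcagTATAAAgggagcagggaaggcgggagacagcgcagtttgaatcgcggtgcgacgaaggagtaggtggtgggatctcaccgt
No matches overlap in these windows. The H2BC21 window holds the octamer 46 bases and TATAAA 30 bases before the start site, and CCAAT matches at 77, 142 and 170 bases. The H2BC5 window holds TATAAA 28 bases before the start, 4 CCAAT matches and no octamer match. Both windows also hold TATAAA on the opposite strand, at 212 bases in H2BC21 and 205 bases in H2BC5. The H4C11 window holds TATAAA 31 bases before the start and neither of the other motifs, and the H2AZ1 window holds TATAAA at 31 bases and 3 CCAAT matches. Of the 53 genes, 49 matched a RefSeq promoter. The octamer occurred in 39.5% of 38 cluster gene promoters, against 2.19% of 27305 genes with a promoter entry: in 9 of 12 H2B genes and 6 of 8 H2A genes of the clusters, in none of the 5 H1, 6 H3 and 7 H4 cluster genes, and in none of the 8 variants. TATAAA occurred in 68.4% of the cluster gene promoters and in 37.5% of the variants, against 14.0% of all genes, and CCAAT in 86.8% and 75.0%, against 39.7%. These matches describe letters in the windows and say nothing of which factors bind there.

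The arrays and the knockdown were examined first. KDM3A had 692 and 712 in A549 under siKDM3A, against 1299.7 to 1519 on the 4 control arrays, and 197 and 223 in SW780 under siKDM3A, against 359 to 433. The changes were −0.97 ± 0.10 in A549 (adjusted p = 8.34e-05) and −0.86 ± 0.10 in SW780 (adjusted p = 2.74e-04), in log2(signal + 16) with the standard error, from limma with Benjamini-Hochberg adjustment over 14061 genes; all later changes are on this scale. Replicate arrays correlated at 0.982 to 0.989 across probe sets. The pair of SW780 siFFluc arrays differed most from each other, where the spread of their log2 differences (SD) was 0.483, compared with 0.359 to 0.437 for the other 5 pairs. Of 8 urothelial markers tested, 7 were higher in SW780 under control siRNAs, among them GATA3, which averaged 12390 over the 6 SW780 arrays and 359 over the 6 A549 arrays, while KRT5 was lower in SW780, at 153 against 5609 in A549; UPK3A was dim. Among lung alveolar markers NKX2-1 and SFTPD were dim, and SFTPB, SFTPC and NAPSA passed the filter. NKX2-1 averaged 44.9 in SW780 and 9.23 in A549. Under control siRNAs SFTPC was higher in SW780 (1.25, adjusted p = 6.77e-04), while SFTPB (−0.47, adjusted p = 0.0095) and NAPSA (−1.07, adjusted p = 0.0132) were lower. Of the fibroblast markers COL1A2, COL3A1 and PDGFRB were dim, DCN passed the filter, and COL1A1 (−2.21) and LUM (−0.42) were lower in SW780. Of the leukocyte markers on the array PTPRC and LYZ were dim, PTPRC being below the filter level on all 12 arrays, whereas CD14 averaged 10.8 in SW780 and 63.9 in A549 and CD3E 31.1 in SW780 and 39.3 in A549, and both passed the filter.

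Of the 53 histone genes, 39 passed the filter on dim probe sets, a mean signal over 12 arrays of at least 33.57, which is 73.6% of them beside 71.1% of all genes on the array. All 8 variants passed, as did 29 of the 40 replication-dependent genes, 1 of the 3 testis genes (H1-6) and 1 of the 2 pseudogenes (H2AC5P). By family, 6 of 7 H1 genes, 13 of 15 H2A genes, 8 of 13 H2B genes, 6 of 9 H3 genes and 6 of 9 H4 genes passed. A mean signal of at least 100 was reached by 35.8% of the histone genes, 19 of them, against 55.6% of all genes: all 8 variants and 11 of the 40 cluster genes. Those 11 lean on probe sets that may read related genes. Of the 10 cluster genes whose leading probe set carries the suffix x_at or s_at, which marks probes shared with other transcripts, 8 reached 100, against 3 of the 30 whose probe set ends in plain _at.

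Both arrays of a group reached the filter level for 33, 36 and 34 of the 53 genes in A549 under siKDM3A, siFFluc and siEGFP, and for 35, 30 and 32 in SW780. In the same order, 65.1, 66.7 and 66.2% of all genes on the array did so in A549, and 64.3, 63.2 and 63.0% in SW780. The lowest histone count, 56.6%, was that of SW780 under siFFluc, the pair of arrays that differed most. The lowest share of all genes was that of SW780 under siEGFP. On all 12 arrays 23 histone genes reached the filter level, every variant among them. In no group did H1-1, H2AC8, H2AC15, H2BC1, H2BC11, H2BC13, H3-4, H3C1, H4C1, H4C13 and H4C10P reach it on both arrays, so for these 11 genes no level could be given.

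**Figure D1:**
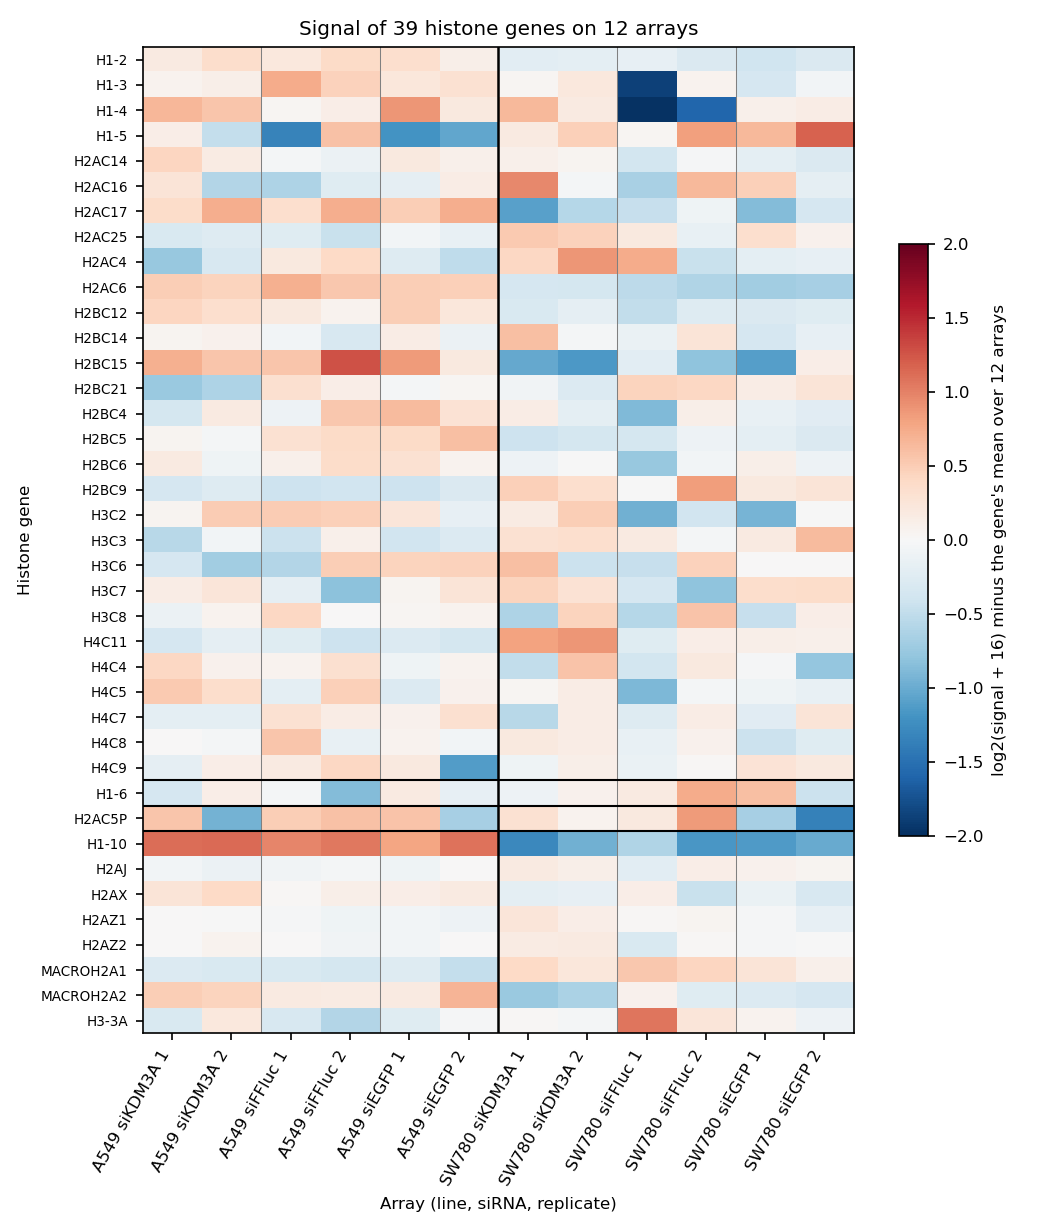
Heat map of the 39 histone genes that passed the filter (rows) on the 12 arrays (columns, by line, siRNA and replicate), coloured by log2(signal + 16) minus the gene's own mean over 12 arrays; horizontal lines separate cluster genes, the testis gene H1-6, the pseudogene H2AC5P and the variants. H1-10 was high on all A549 arrays and low on all SW780 arrays, and H1-4 and H1-3 were lowest on SW780 siFFluc replicate 1.

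In A549, 2 H2B genes, H2BC21 and H2BC5, fell under siKDM3A, and no histone gene rose past the threshold. The 2 genes are 5.13% of the 39 tested, a share below the 11.7% of all genes called in this comparison (5.33% higher and 6.35% lower). The tests were made in limma on all 12 arrays, with an adjusted p under 0.05 as the threshold.

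H2BC21, an H2B gene of the chromosome 1 cluster formerly called HIST2H2BE, is read by a single probe set. That set carries the suffix s_at, so it may read other transcripts too. Its signal in A549 was 128 and 142 under siKDM3A, 284 and 249 under siFFluc and 219 and 232 under siEGFP. In SW780 it was 214 and 185 under siKDM3A, 312 and 306 under siFFluc and 251 and 274 under siEGFP. In each line both siKDM3A arrays lay below all 4 control arrays. In such bulk samples, fewer cells that express a gene and less of its RNA per cell cannot be told apart. The change was −0.79 ± 0.14 in A549 (adjusted p = 0.0035), a mean of 135 ± 9.9 (SD, n = 2) under siKDM3A and 246 ± 28.4 (SD, n = 4) in the controls, and −0.48 ± 0.14 in SW780 (adjusted p = 0.0459). Over both lines it was −0.64 ± 0.10 (adjusted p = 8.81e-04), past the threshold in all 21 alternative analyses, with an adjusted p of at most 0.011. The call within A549 was lost without siKDM3A replicate 1 (adjusted p = 0.055). The call within SW780 was lost in 15 of its alternatives, where the adjusted p ranged up to 0.259 and the change stayed negative.

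H2BC5, an H2B gene of the large chromosome 6 cluster formerly called HIST1H2BD, had a signal in A549 of 1035 and 963 under siKDM3A, 1237 and 1302 under siFFluc and 1304 and 1522 under siEGFP. Both siKDM3A arrays were below every control array. The fall was −0.42 ± 0.09 (adjusted p = 0.0133), with means of 999 ± 51.1 (SD, n = 2) under siKDM3A and 1341 ± 124 (SD, n = 4) in the controls. A further probe set of the gene gave 475 and 815 under siKDM3A, 1014 and 982.5 under siFFluc and 969 and 1079 under siEGFP in A549 and fell by 0.68 (adjusted p = 0.0375 in the fit of every probe set). Both sets carry the suffix x_at and can read near-identical H2B genes. The call on the leading set was lost without siKDM3A replicate 1 (0.0648) or 2 (0.153), with siFFluc as the only control (0.0676) and with arrays scaled to a common median (0.0745), over a range of adjusted p from 0.00456 to 0.153. In SW780 the leading set gave 740.3 and 778 under siKDM3A, 779.7 and 926 under siFFluc and 866.5 and 812.5 under siEGFP. There too the siKDM3A arrays lay below the controls, by a change of −0.15 ± 0.09 that did not pass (adjusted p = 0.344). The further set gave 970 and 694 under siKDM3A, 740 and 992 under siFFluc and 783 and 777 under siEGFP in SW780, with overlapping groups.

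The other 37 histone genes tested in A549 changed by amounts between −0.72 (H3C6) and 0.58 (H1-5, below the filter level on 4 of its 6 A549 arrays) that did not pass. Arrays of the siKDM3A and control groups did not overlap for 4 genes that were higher (H1-10, H2AX, H2AZ1 and H2AZ2), where 17.0% of all genes were so placed, and for 4 that were lower (H1-3, H2BC21, H2BC5 and H4C7), where 19.9% were. The median change of the 39 genes was 0.05, against −0.02 for all genes tested.

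**Figure D2:**
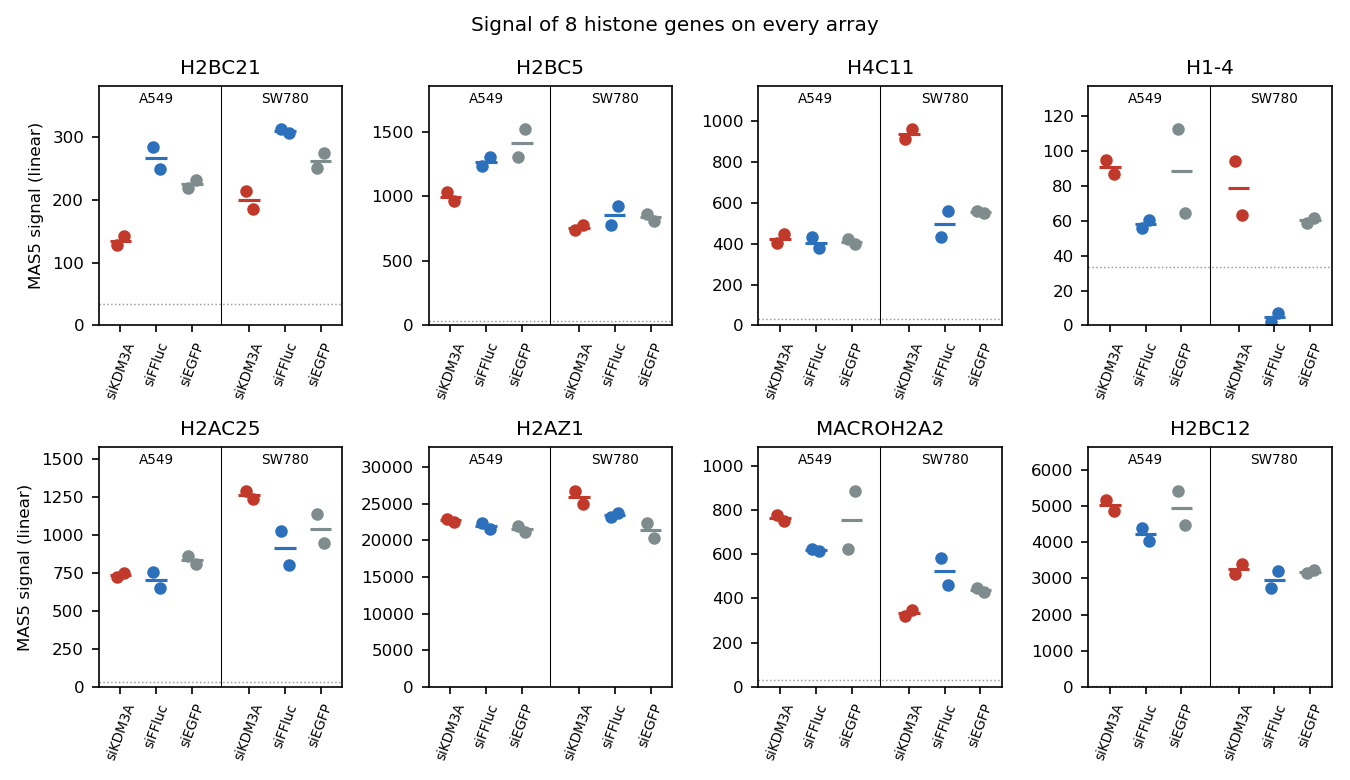
MAS5 signal (linear axis from 0) of 8 histone genes on every array; each point is 1 array, bars are the mean of the 2 arrays, the dotted line is the filter level of 33.57, and the siRNAs run from siKDM3A to siFFluc and siEGFP within A549 (left) and SW780 (right). H2BC21 was lowest under siKDM3A in both lines, and H4C11 was at 910.4 and 960.4 on the SW780 siKDM3A arrays and at or below 561 on the other 10 arrays.

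In SW780, 4 histone genes rose under siKDM3A, H4C11, H1-4, H2AZ1 and H2AC25, and 2 fell, MACROH2A2 and H2BC21. These 6 are 15.4% of the 39 genes, against 11.8% of all genes called in SW780 (5.68% higher and 6.15% lower), a share near the background. The siKDM3A and control arrays did not overlap for 10 histone genes that were higher, where 15.3% of all genes were so placed, and for 3 that were lower, where 13.3% were. The median change was 0.13, against 0.03 for all genes.

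H4C11, a histone H4 gene of the chromosome 6 cluster formerly called HIST1H4J, had the smallest adjusted p of the histone genes in SW780. Its signal in SW780 was 910.4 and 960.4 under siKDM3A, 432 and 561 under siFFluc and 559 and 551 under siEGFP. Both siKDM3A arrays stood above all 4 control arrays. The mean was 935 ± 35.4 (SD, n = 2) under siKDM3A and 526 ± 62.5 (SD, n = 4) in the controls, a change of 0.82 ± 0.12 (adjusted p = 9.16e-04) that passed in all 21 alternatives. In A549 the signal was 401 and 449.6 under siKDM3A, 430.5 and 379 under siFFluc and 423 and 398 under siEGFP, with overlapping groups and a change of 0.06 ± 0.12 (adjusted p = 0.824). The difference of the responses, SW780 minus A549, was 0.76 ± 0.17 (adjusted p = 0.0353), but it passed in 6 of 21 alternatives only, with adjusted p from 0.00734 to 0.152. H4C11 was the 1 histone gene called for that difference, 2.56% of 39, against 2.75% of all genes (1.78% higher and 0.974% lower). The probe set is of the x_at type, and all human H4 genes encode nearly the same protein, so the signal may come from several H4 genes.

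H1-4 is a replication-dependent linker histone gene formerly called HIST1H1E. Its signal in SW780 was 93.9 and 63.4 under siKDM3A, 1.8 and 7.4 under siFFluc and 58.7 and 61.8 under siEGFP. The siFFluc arrays were near 0 and below the filter level, while the siEGFP arrays were close to the lower siKDM3A array. The change against both controls was 1.24 ± 0.30 (adjusted p = 0.0194), but against siEGFP alone it was 0.29 (adjusted p = 0.701), over a range of 0.00149 to 0.701 across the alternatives. It was also lost without siKDM3A replicate 1 (0.176) or 2 (0.0503). In A549 the gene had 94.8 and 86.5 under siKDM3A, 55.7 and 60.6 under siFFluc and 112 and 64.3 under siEGFP, with overlapping groups. H1-4 was also the 1 histone gene called between the control siRNAs in SW780, at −1.90 ± 0.35 for siFFluc minus siEGFP (adjusted p = 0.00929), a size that depends on the added 16 since both siFFluc arrays were below the filter level; in this comparison 5.57% of all genes were called and 2.6% were lower. It was not called there without SW780 siEGFP replicate 2 (0.0735).

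H2AC25, an H2A gene of the small HIST3 cluster, had in SW780 a signal of 1291 and 1237 under siKDM3A, 1023 and 804 under siFFluc and 1136 and 946 under siEGFP. Both siKDM3A arrays lay above the controls, by 0.38 ± 0.11 (adjusted p = 0.0451), but 15 of 21 alternatives lost the call, among them every fit that left out an A549 array or a siKDM3A array of SW780. In A549 it had 725 and 748.5 under siKDM3A, 758 and 652 under siFFluc and 863 and 809 under siEGFP, where groups overlapped and the change was −0.06 ± 0.11 (adjusted p = 0.822).

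H2AZ1 encodes the H2A.Z variant found at promoters. Its signal in SW780 was 26789 and 24959 under siKDM3A, 23131 and 23713 under siFFluc and 22396 and 20356 under siEGFP. Both siKDM3A arrays were above the controls, though the means of 25870 and 22400 differed by 0.21 ± 0.06 only (adjusted p = 0.0383), and 14 of 21 alternatives lost the call. In A549 it was 22899 and 22551 under siKDM3A, 22366 and 21548 under siFFluc and 21927 and 21209.6 under siEGFP. These arrays too did not overlap, at a change of 0.06 ± 0.06 (adjusted p = 0.577). Its second probe set changed by 0.16 in SW780 and did not pass (adjusted p = 0.214, in a fit of every probe set that called 7.67% of them).

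MACROH2A2 encodes a macroH2A, an H2A with a large additional domain that marks silent chromatin. Its signal in SW780 was 322 and 347 under siKDM3A, 584 and 461 under siFFluc and 447 and 427 under siEGFP. Both siKDM3A arrays were below the controls, at 334 ± 17.8 (SD, n = 2) against 480.0 ± 70.9 (SD, n = 4), a change of −0.49 ± 0.14 (adjusted p = 0.0349). The call was kept in 11 of 21 alternatives and was lost with siEGFP as the only control (0.199). In A549, where the signal was 777 and 748 under siKDM3A, 621 and 614 under siFFluc and 621 and 886 under siEGFP, the change was 0.17 ± 0.14 (adjusted p = 0.504). The difference between the lines for this gene did not pass the threshold.

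**Figure D3:**
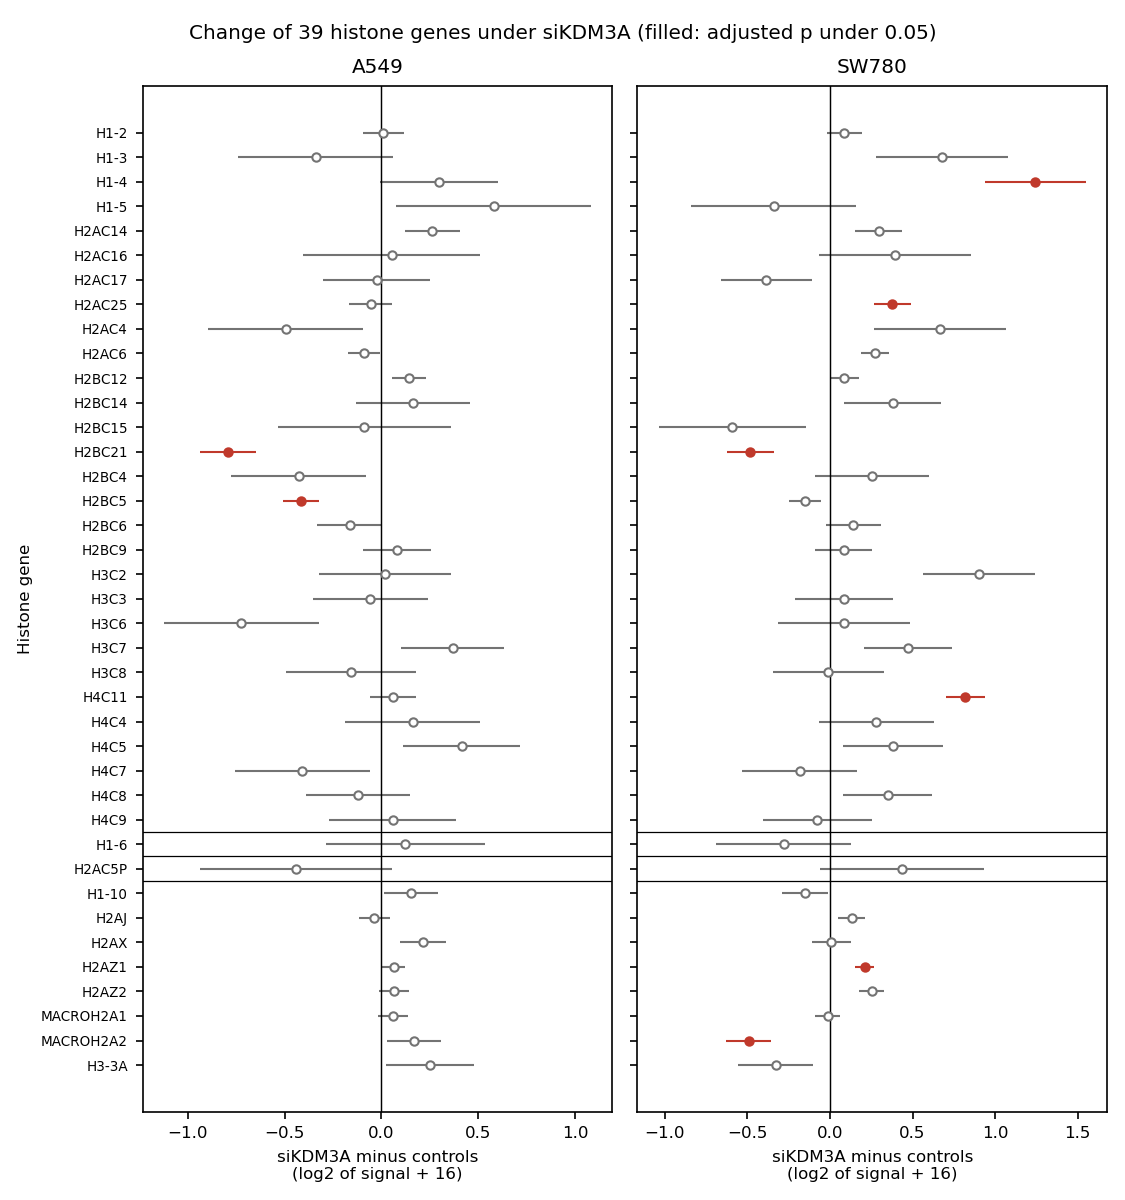
Change of the 39 histone genes under siKDM3A in A549 (left) and SW780 (right), as siKDM3A minus the mean of both controls in log2(signal + 16); bars are standard errors, filled red points have an adjusted p under 0.05, and lines separate the classes as in the heat map. In A549 the 2 filled points are H2BC21 and H2BC5, both below 0, and in SW780 4 filled points lie above 0 and 2 below.

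With both lines averaged, H4C11 (0.44 ± 0.08, adjusted p = 0.00301), H1-4 (0.77 ± 0.22, adjusted p = 0.025) and H2AZ1 (0.14 ± 0.04, adjusted p = 0.0406) were higher and H2BC21 and H2BC5 (−0.28 ± 0.07, adjusted p = 0.0104) were lower. That is 12.8% of the 39 genes, against 18.2% of all genes (8.86% higher and 9.36% lower). H2BC21 and H4C11 kept this call in all 21 alternatives, though H4C11 moved in SW780 and its A549 groups overlapped. The call of H2BC5 was lost without A549 siKDM3A replicate 2 (0.0625). With siEGFP as the only control the change of H1-4 was 0.18 (adjusted p = 0.712), and H2AZ1 kept its call in 9 of 21 alternatives, with an adjusted p of up to 0.205. By family, 1 of 6 H1 genes, 1 of 13 H2A genes and 1 of 6 H4 genes were higher, 2 of 8 H2B genes were lower, and none of 6 H3 genes was called.

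The variants were read by more probe sets than the cluster genes, and these did not always move alike. H2AZ2, a near relative of H2AZ1, had on its leading set 8494 and 8778.5 under siKDM3A, 8439.9 and 8036 under siFFluc and 8127.5 and 8452 under siEGFP in A549, with a change of 0.06 ± 0.08 (adjusted p = 0.676). Its set 212205_at gave 4411 and 4403 under siKDM3A, 5528.5 and 5463.5 under siFFluc and 5241 and 5301 under siEGFP in A549. Here both siKDM3A arrays were below the controls and the change was −0.29 ± 0.06 (adjusted p = 0.00636), against 8.08% of all probe sets called in that fit. In SW780 the leading set had 9381 and 9562 under siKDM3A, 6814 and 8534 under siFFluc and 8229.5 and 8340.3 under siEGFP, higher by 0.25 ± 0.08 just outside the threshold (adjusted p = 0.0505), and 212205_at changed by −0.04 ± 0.06. The set 212206_s_at was below the controls in both lines, at 893 and 943 against 1039 to 1166 in A549. In SW780 it read 887 and 923 against 1001 to 1128. The set 227085_at was below the controls in SW780, at 1271 and 1349 against 1481 to 1537. In A549 it was just above them, at 2003 and 2023 against 1865 to 2001.

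MACROH2A1, the more widely expressed macroH2A gene, had on its leading set 13244 and 12893 under siKDM3A, 12903.5 and 12489.5 under siFFluc and 13307 and 11503.5 under siEGFP in A549 and a change of 0.06 ± 0.08 (adjusted p = 0.697). Its set 226840_at gave 139.6 and 144 under siKDM3A, 201.5 and 214 under siFFluc and 206 and 239.7 under siEGFP. On that set both siKDM3A arrays were below the controls, with a change of −0.55 ± 0.14 (adjusted p = 0.0298). In SW780 the leading set gave 21058 and 18722 under siKDM3A, 23226 and 21419.7 under siFFluc and 19129 and 17025 under siEGFP, and neither this set (−0.01 ± 0.08) nor 226840_at (−0.04 ± 0.14) passed. Which transcripts the sets read was not tested.

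H2AX, which is phosphorylated around DNA breaks, had 6611.5 and 7227 under siKDM3A, 5612 and 5971.5 under siFFluc and 6049 and 6220.1 under siEGFP in A549. Both siKDM3A arrays were above the controls, at a change of 0.21 ± 0.12 that did not pass (adjusted p = 0.3). In SW780 it had 4813 and 4879 under siKDM3A, 6041 and 4026 under siFFluc and 5004 and 4422 under siEGFP, with overlapping groups. H2AJ, an H2A gene outside the clusters, had 6025 and 5800.2 under siKDM3A, 5993.5 and 6063 under siFFluc and 5927 and 6269 under siEGFP in A549 and 7109 and 6763 under siKDM3A, 5385 and 6859 under siFFluc and 6654 and 6519 under siEGFP in SW780. Its groups overlapped in both lines, with changes of −0.04 ± 0.08 in A549 and 0.13 ± 0.08 in SW780. H1-10, a linker histone variant, had 3919 and 3958 under siKDM3A, 3536 and 3729.5 under siFFluc and 3107 and 3846 under siEGFP in A549 and 723 and 919 under siKDM3A, 1183 and 797 under siFFluc and 810.4 and 885 under siEGFP in SW780. Its changes of 0.15 ± 0.14 in A549 and −0.15 ± 0.14 in SW780 did not pass.

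H3-3A encodes H3.3, which replaces H3 outside replication. The one set that names it alone had 167 and 246.5 under siKDM3A, 164 and 134 under siFFluc and 175 and 206 under siEGFP in A549 and 214 and 204 under siKDM3A, 461 and 251 under siFFluc and 222 and 196 under siEGFP in SW780. A SW780 siFFluc array stood apart at 461, and neither change passed (0.25 ± 0.23 in A549 and −0.33 ± 0.23 in SW780). Most H3.3 probe sets also name H3-3B and were left out of the 53 genes.

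**Figure D4:**
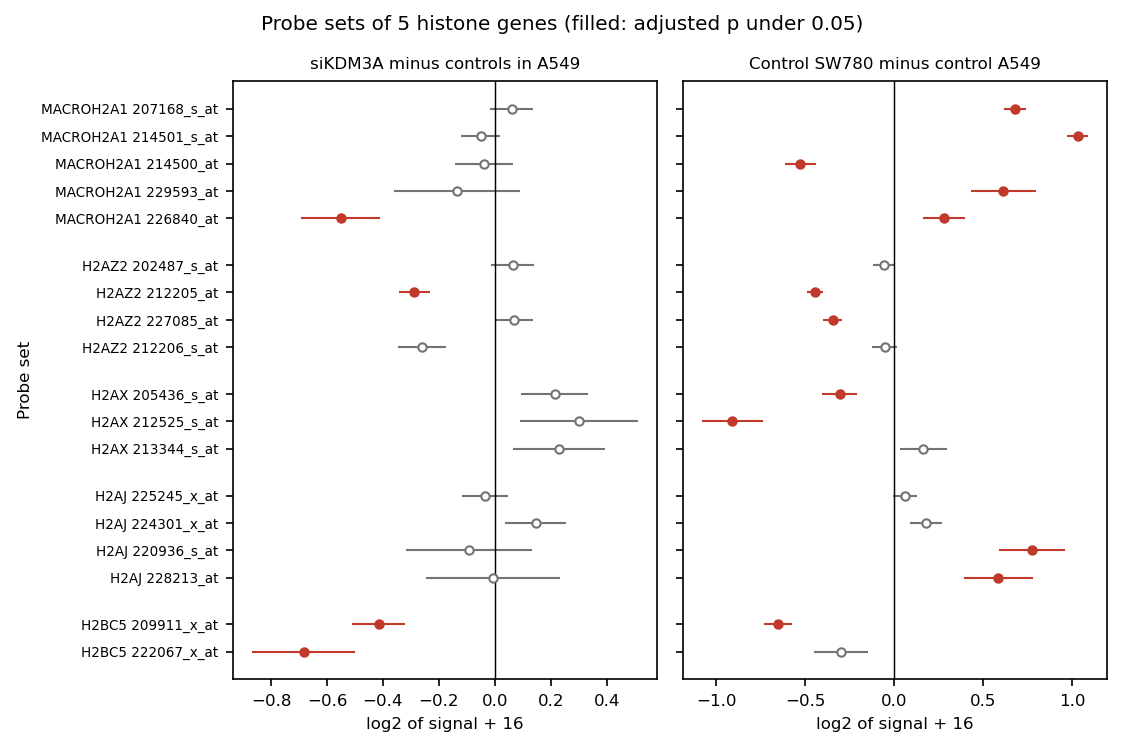
Every probe set past the filter of MACROH2A1, H2AZ2, H2AX, H2AJ and H2BC5, with the change under siKDM3A in A549 (left) and the difference of control SW780 minus control A549 (right), in log2(signal + 16) with standard errors; filled red points have an adjusted p under 0.05 over all probe sets. Probe sets of 1 gene lay on both sides of 0 for MACROH2A1, H2AZ2 and H2AJ on the left and for MACROH2A1 and H2AX on the right.

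Between the control siRNAs, siFFluc minus siEGFP, no histone gene was called in A549 by limma, where 1 had an unadjusted p under 0.05 and 2.92% of all genes were called. In SW780 H1-4 alone was called. This comparison shares its arrays with those of siKDM3A, and 9 histone genes were called between the controls in SW780 once siFFluc replicate 2 was left out. In that fit 13.7% of all genes were called, and the lone siFFluc array was assumed to vary like the arrays of the other groups.

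Between the lines under control siRNAs, 6 histone genes were higher in SW780 and 13 were lower. These 19 are 48.7% of the 39 genes, against 68.9% of all genes (30.1% higher and 38.8% lower), a share below the background whose difference from it was not tested. The control arrays of the lines did not overlap for 3 genes that were higher in SW780, where 25.3% of all genes were so placed, and for 9 that were lower, where 33.8% were. The median difference was −0.23 for the histone genes and −0.11 for all genes.

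The largest difference in size was that of H1-10, with 1183 and 797 (siFFluc) and 810.4 and 885 (siEGFP) in SW780, against 3536 and 3729.5 (siFFluc) and 3107 and 3846 (siEGFP) in A549. All SW780 arrays were below all A549 arrays, and the difference was −1.95 ± 0.11 (adjusted p = 4.76e-09). H2AC6, an H2A cluster gene, had 529 and 501.5 (siFFluc) and 469 and 479.5 (siEGFP) in SW780, against 1265 and 1118 (siFFluc) and 1085 and 1076 (siEGFP) in A549, again without overlap, at −1.17 ± 0.07 (adjusted p = 4.16e-09). H1-2, a linker histone of the cluster, had 533 and 488 (siFFluc) and 449 and 488 (siEGFP) in SW780, against 696 and 784 (siFFluc) and 758 and 649.7 (siEGFP) in A549. Its groups were apart by −0.54 ± 0.09 (adjusted p = 6.99e-05). H2AC17 had 55.5 and 76.2 (siFFluc) and 37.7 and 61.5 (siEGFP) in SW780, against 108 and 147 (siFFluc) and 122 and 146 (siEGFP) in A549, with no overlap and a difference of −1.01 (adjusted p = 0.0013).

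The H2B genes split. H2BC12 had 2726 and 3202.5 (siFFluc) and 3138 and 3231 (siEGFP) in SW780, against 4391.5 and 4046 (siFFluc) and 5425 and 4469 (siEGFP) in A549, and H2BC5 had the control values given above. Both were lower in SW780 with no overlap, with differences of −0.57 ± 0.07 for H2BC12 (adjusted p = 9.64e-06) and −0.65 ± 0.08 for H2BC5 (adjusted p = 4.92e-06). H2BC9 had 534 and 975 (siFFluc) and 621 and 651 (siEGFP) in SW780, against 399 and 412 (siFFluc) and 401 and 438 (siEGFP) in A549, so that every SW780 array was above every A549 array, by 0.70 ± 0.14 (adjusted p = 6.98e-04). H2BC6 was lower (−0.41, adjusted p = 0.0168) with overlapping control arrays, at 443 to 825 in SW780 and 796 to 981 in A549. Its call was lost under quantile normalization, under median scaling and with siEGFP as the only control (−0.18, adjusted p = 0.458). H2BC21 did not pass. H2BC15 was called lower too, but its 4 SW780 control arrays, at 4.3 to 31.4, were all below the filter level, against 33.9 to 89.1 in A549, so no size is given.

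Among the variants, MACROH2A1 was higher in SW780 on its leading set, by 0.68 ± 0.06 (adjusted p = 4.69e-07), with no overlap: its control arrays read 17025 to 23226 in SW780 and 11504 to 13307 in A549. Its set 214501_s_at was higher by 1.03 ± 0.06 (adjusted p = 2.02e-09), whereas 214500_at was lower by a difference of −0.53 ± 0.08 (adjusted p = 9.86e-05), in a fit where 60.5% of all probe sets were called. MACROH2A2 was lower at −0.49 ± 0.11 (adjusted p = 0.0015). H2AX was lower at −0.31 ± 0.10 (adjusted p = 0.0133) with overlapping arrays, and its set 213344_s_at gave 0.17 ± 0.13. Its set 212525_s_at was lower in SW780 without overlap, with control arrays at 239 to 436, against 510 to 652 in A549. H4C11, H2AC25 and H3-3A were higher by 0.35, 0.33 and 0.62. The arrays of H2AC25 and H3-3A overlapped. With siEGFP as the only control H3-3A differed by 0.13 (adjusted p = 0.705) and H2AC25 lost its call (0.0565). H4C11 lost its call with siFFluc alone (0.0995). Among sets naming 14 H4 genes, 205967_at was lower in SW780 (−0.43, adjusted p = 0.00537) in the fit of every probe set. There 208580_x_at was higher (0.60, adjusted p = 2.70e-04) and 207046_at did not pass (adjusted p = 0.149). Of the linker genes with a mean signal under 100, H1-5 was called higher, with control arrays at 34.1 to 94.7 in SW780 and 3.2 to 57.0 in A549. The lines overlapped and 3 of the 4 A549 arrays were below the filter level, so no size is given. H1-4, H1-3 and H3C2 were called lower, and of their 4 SW780 control arrays 2, 1 and 2 were below that level. Of the 19 calls, 8 held in every alternative: H1-10, MACROH2A1, H2BC9, H1-2, H2BC12, H2BC5, H2AC17 and H2AC6.

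**Figure D5:**
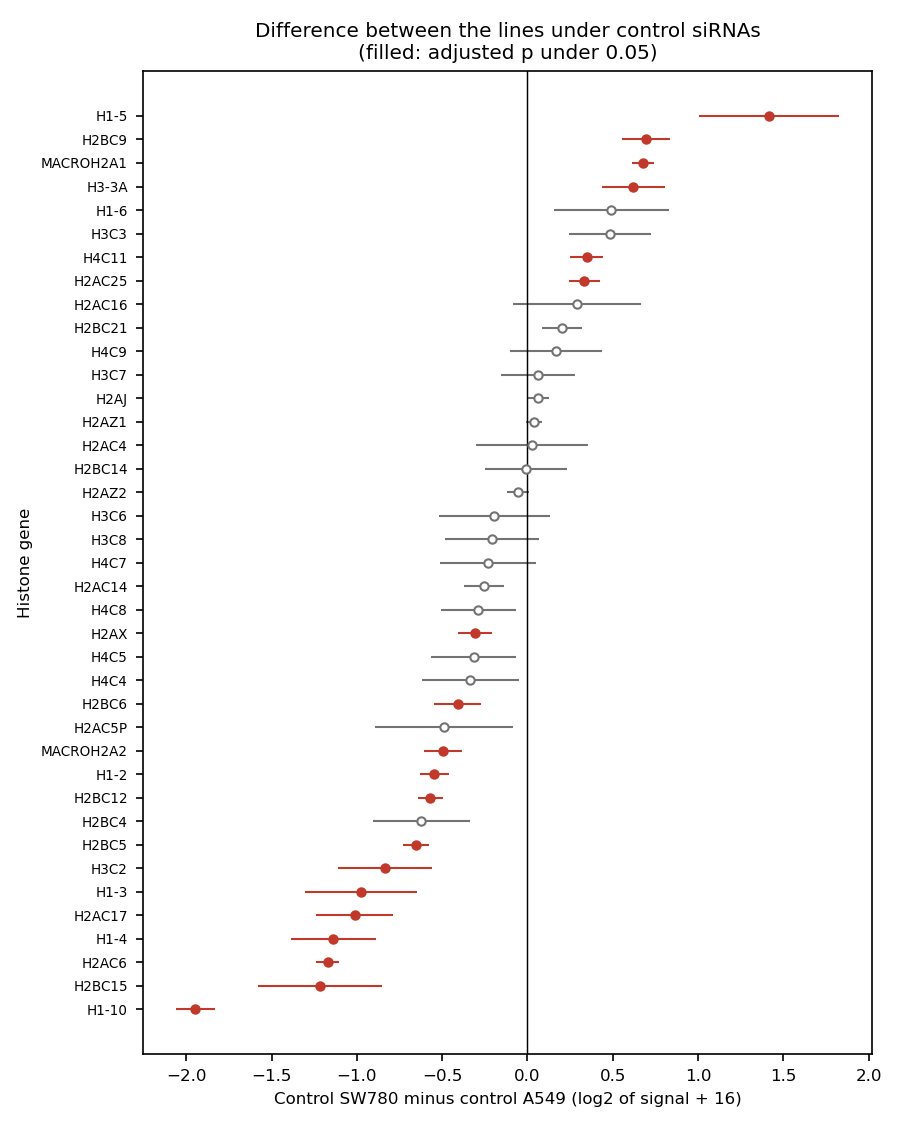
Difference of the 39 histone genes between control SW780 and control A549 arrays (4 each) in log2(signal + 16), sorted by size; bars are standard errors and filled red points have an adjusted p under 0.05. Filled points lie above 0 for 6 genes and below 0 for 13, with H1-10 lowest at −1.95; H2BC15 in SW780 and H1-5 in A549 were mostly below the filter level, so the places of their points depend on the added 16.

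Genes that serve histones were read beside them. Of 23 tested genes of histone mRNA synthesis and processing, 1 was higher and 2 were lower in A549, 13.0% called beside 11.7% of all genes. LSM11, a subunit of the U7 particle that cuts histone mRNA 3′ ends, had means of 348 ± 19.9 under siKDM3A and 645 ± 40.7 in the controls (SD, n = 2 and 4), a change of −0.86 (adjusted p = 1.22e-04). ERI1, an exonuclease that acts on histone mRNA, had 813 ± 2.97 under siKDM3A and 1196 ± 62.8 in the controls (SD, n = 2 and 4), a change of −0.55 (adjusted p = 2.78e-04), and the transcription factor YY1 was higher by 0.41. In SW780 3 were higher and none lower, 13.0% beside 11.8% of all genes, so that both shares were near the background. The 3 were the kinase CDK2 (0.47), the stem-loop binding protein SLBP (0.31) and the cleavage factor CPSF2 (0.28). Of these, CDK2 kept its SW780 call in all 21 alternatives, as LSM11 and ERI1 did in A549, while SLBP (0.155) and CPSF2 (0.162) lost theirs under median scaling. SLBP and CPSF2 also lost their SW780 calls with siEGFP as the only control.

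Of 30 histone chaperones and carriers, 4 were higher and 3 lower in A549, and 4 were higher and 4 lower in SW780. These are 23.3% in A549, beside 11.7% of all genes, and 26.7% in SW780, beside 11.8%. DNAJC9, which carries H3 and H4, was higher in both lines, by 0.24 in A549 (adjusted p = 0.0109) and 0.48 in SW780 (adjusted p = 1.29e-04). In A549 the control siRNAs also differed for DNAJC9, by 0.26 for siFFluc minus siEGFP (adjusted p = 0.0341). Against siFFluc alone its A549 change was 0.11 and did not pass (adjusted p = 0.315). SUPT16H, a subunit of the chaperone FACT, was lower in both, at −0.45 in A549 (adjusted p = 0.0035) and −0.51 in SW780 (adjusted p = 0.00169), the A549 call being lost under median scaling (0.0572). YEATS4, a subunit of complexes that place H2A.Z, was higher by 0.35 in A549 and 0.62 in SW780. With siFFluc as the only control, none of the 30 was higher and 2 were lower in A549. The share of all genes in that fit is not given here.

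Replication-dependent histone mRNA follows S phase, so 39 S-phase genes were read in the same fit. In A549 8 were higher and 1 lower, with a median change of 0.12, and in SW780 13 were higher and none lower, with a median of 0.21. Of all genes, 5.33% were higher in A549 and 5.68% in SW780. The counts in SW780 were 4 higher and none lower with siEGFP as the only control, and 6 higher and none lower under median scaling, under which 19 were higher and 1 lower in A549. Of all 14061 genes, 282 were higher in SW780 under median scaling and 2210 in A549, where 798 and 749 were as reported. The share of all genes with siEGFP as the only control is not given here. RFC4, a subunit of the clamp loader, was higher by 0.35 in A549 (adjusted p = 0.00231) and 0.40 in SW780 (adjusted p = 0.00115), and GINS3 was the gene that was lower in A549. Between the control siRNAs in SW780, 1 was higher and 8 were lower under siFFluc, the arrays that stood apart; the 8 are 20.5% of the list, beside 2.6% of all genes lower in that comparison. The part of S-phase gene levels in the histone values was not tested.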

How the data were processed

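Total RNA of the transfected cells was labelled as biotinylated cRNA and hybridised to Affymetrix GeneChip U133 Plus 2.0 arrays, per the labels' protocols. The deposited values are linear intensities (signals) from MAS5, per the submitters' processing notes; its version and settings are not given in the sources used here. On each array the mean signal after trimming 2% at each end was between 500.07 and 500.09. Medians were 50.2 to 58.9, and the number of arrays limits the precision.

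Of 54675 probe sets 62 controls were removed; of the remaining 54613, 41091 name 1 gene, 1801 several and 11721 none in GEO's 2016 platform annotation. Symbols were updated through RefSeq (GRCh38.p14), which matched 41037 probe sets. Probe sets with a mean signal under the 40th percentile (33.57) were dropped, and the brightest set stood for each of 14061 genes. Changes are differences of log2(signal + 16), tested with limma 3.58.1 in R 4.3.3 (moderated statistics of 1 fit of 6 groups over 12 arrays) and adjusted by Benjamini-Hochberg over all genes; siKDM3A was set against the mean of both controls. The fits were tested on simulated data. Figures were drawn with matplotlib 3.10.9 in Python 3.11.15.

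Array values were given for up to 8 rises and 8 falls of smallest p among called histone genes per comparison and for the variants that were not dim; up to 3 genes of smallest adjusted p per list were named. The members, the lists and this rule were chosen with earlier results of these data known. Alternatives were a pseudocount of 64, no filter or a mean of at least 100, quantile normalization, median scaling, every probe set, a replicate block, either control alone, and leaving out each array. Deviations of same-numbered arrays correlated at −0.0296 to 0.0189 within a line, so the numbers were not used as pairs. Every column of the table was mapped to a sample.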

Additional observations from a re-analysis of the deposited data

Results flagged for a closer look

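H4C11 differed between the lines in its response to siKDM3A, by 0.76 ± 0.17 in log2(signal + 16), SW780 minus A549 (limma, adjusted p = 0.0353). The probe set rose in SW780 and its groups overlapped in A549, and the difference passed in 6 of 21 alternative analyses.

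Probe sets that name several histone genes were left out of the 53 genes and give a signal of their own: 29 sets name several genes with a histone gene among them, and 23 passed the filter. In the fit of every probe set, where 7.67% of sets were called in SW780, higher or lower, 5 of the 23 rose there under siKDM3A. On each of the 5 both siKDM3A arrays lay above all 4 control arrays, as on uncalled sets such as 206110_at and 208490_x_at. The share of all sets so placed is not given here, and sets that name the same genes are not independent.

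Of 3 sets past the filter that name 14 H4 genes, 2 rose in SW780, and the dimmer 207046_at did not pass (0.30, adjusted p = 0.724). The set 205967_at had 23145 and 22205 under siKDM3A, 10681 and 15959 under siFFluc and 16922 and 12153 under siEGFP in SW780, higher by 0.73 ± 0.14 (limma, adjusted p = 0.00741). In A549 it had 19014 and 20413 under siKDM3A, 19207 and 17651 under siFFluc and 19338 and 17526 under siEGFP, with overlapping groups and a change of 0.10 ± 0.14. The set 208580_x_at had 639 and 715 under siKDM3A, 367 and 425 under siFFluc and 631 and 476 under siEGFP in SW780, higher by 0.52 ± 0.13 (limma, adjusted p = 0.0293). Both called sets name H4C11 among their genes, so they are not independent of its own probe set.

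The sets 214290_s_at and 218280_x_at name the neighbouring and near-identical H2A genes H2AC18 and H2AC19. In SW780 214290_s_at had 2686.5 and 2602 under siKDM3A, 1458.5 and 2068 under siFFluc and 2049 and 1882 under siEGFP, higher by 0.51 ± 0.11 (limma, adjusted p = 0.0149). In SW780 218280_x_at had 1136 and 1286 under siKDM3A, 709 and 921 under siFFluc and 913 and 939 under siEGFP, higher by 0.47 ± 0.11 (limma, adjusted p = 0.0231). Of 8 sets past the filter that name H3-3A and H3-3B, 1 rose in SW780. The other 7, with mean signals of 18680 to 26580, changed there by 0.01 to 0.19 and did not pass (adjusted p from 0.12 to 0.949). The set that rose, 211998_at, names 3 genes and was far dimmer. It had 779 and 677 under siKDM3A, 493 and 549.1 under siFFluc and 535 and 534 under siEGFP in SW780, higher by 0.45 ± 0.09 (limma, adjusted p = 0.0114), and 1061 and 1208 under siKDM3A, 934 and 967 under siFFluc and 938 and 943 under siEGFP in A549, where the groups did not overlap and the change of 0.26 ± 0.09 did not pass (adjusted p = 0.123). None of these 5 sets passed for a difference between the lines, with adjusted p from 0.132 to 0.512.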

How the results depend on the processing

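Depth here means brightness: 20 of the 39 histone genes had a mean signal under 100, and with 2 arrays a group small changes could not be told from the spread. The calls of histone genes on their leading probe set, of KDM3A and of the named genes of the synthesis, chaperone and S-phase lists under siKDM3A kept their sign in all alternatives run for them; calls on further probe sets and on sets of several genes rest on 1 fit, with no alternatives run. The number of all genes called also moved with the setting, as given below for median scaling. The counts that follow, also those without 1 array, therefore describe stability and are no result about histone genes. The counts of called histone genes moved by more than 1.5 times as follows. In A549 2 became 4 genes with every probe set and 1 with siFFluc as the only control. In SW780 6 became 3 with every probe set, 3 without the filter and 2 with siEGFP as the only control. For the difference between the responses 1 became 0 without the filter, under quantile normalization, with the replicate block and with siEGFP alone; under median scaling 1 was called, which was not H4C11. Between the controls in SW780 1 became 0 with a mean of at least 100 and 2 with the replicate block. Between the lines 19 became 12 with siEGFP alone. No other of these counts moved by more than 1.5 times, under the replicate block or under the other alternatives that did not leave out a single array.

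Leaving out 1 array gave 0 to 3 genes in A549 (0 without siKDM3A replicate 1 and 1 without siKDM3A replicate 2), 1 to 9 in SW780, 2 to 7 over both lines, 0 to 5 for the difference, 0 between the controls in A549, 0 to 9 between those in SW780 and 17 to 22 between the lines. In SW780 the lowest count of 1 came without either siKDM3A array and the highest of 9 without siFFluc replicate 2, which also gave the 9 between the controls and the 5 for the difference. Where the array left out was of the other line the change itself stayed the same, and counts of 2 or 3 in SW780 came from a pooled spread of fewer arrays.

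Median scaling moved the median change of all genes by 0.14 in A549, by −0.10 in SW780, by −0.24 for the difference and by 0.14 between the lines. It gave 2210 genes higher and 410 lower in A549 (749 and 893 as reported), 282 and 1249 in SW780 (798 and 865), 118 and 1816 for the difference (250 and 137), and 5025 and 4474 between the lines (4236 and 5453). The median change of the histone genes was then 0.16 in A549, 0.03 in SW780 and −0.08 for the difference, which as reported was 0.15. The cause of these shifts was not tested.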
